A study of Mus musculus with 6 samples.

Results

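The secretin, PACAP and VIP system consists of 7 genes, of the 54532 listed in the deposited table. They are the peptide genes Sct (secretin), Adcyap1 (PACAP) and Vip, and the receptor genes Sctr, Adcyap1r1 (the PAC1 receptor), Vipr1 (VPAC1) and Vipr2 (VPAC2). The 7 genes were taken by name, and they were chosen on measured values, because earlier results of these same libraries, with low Sct and Adcyap1r1 after the knockdown, were known. Their own differences between the groups are therefore given as a description, with no test. The study asked which transcripts change when circRtn4, a circular RNA made from exons of the Rtn4 gene, is depleted in N2a cells, a mouse neuroblastoma line also called Neuro2A. RNA was sequenced from 3 libraries of N2a cells transfected with si-circRtn4, a small interfering RNA against circRtn4, and 3 of N2a cells transfected with the control siRNA si-NC. The labels give the strain as C57BL/6 for all 6 libraries and name only growth medium. The paper names C57BL/6 for its mice and cortical neurons, and gives no strain for N2a cells. The methods describe siRNA for a day and then differentiation medium with retinoic acid for N2a cells in general, so the state of differentiation of the sequenced cells is not known.

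Secretin, PACAP and VIP are related secreted peptides that signal through class B1 G protein-coupled receptors. The PAC1 receptor prefers PACAP, the 2 VPAC receptors bind PACAP and VIP alike, and the secretin receptor is named after its own ligand. All 4 receptors couple mainly to Gs, which activates adenylyl cyclase, raises cAMP and, through protein kinase A, activates the transcription factor CREB. In sympathetic neurons and chromaffin cells, to which neuroblastoma is related, PACAP and its receptor are known for promoting catecholamine synthesis and neurite outgrowth, whereas secretin is best known as a hormone of the gut.

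The promoter sequences of the 2 members with the largest differences are shown first, because Sct and Adcyap1r1 are similarly rich in G and C but carry different motifs. RefSeq (GRCm38.p6) gave promoter windows for all 7 members, from 250 bases before to 50 bases after each start site, with 2 start sites for Adcyap1. The 150 bases before the start of Sct (chr7:141279134-141279283, minus strand) and of Adcyap1r1 (chr6:55451828-55451977, plus strand) are 75.3% and 72.7% G or C. Capitals mark the GC box, GGGCGG on either strand, and the TATA box, TATAAA.
Sct: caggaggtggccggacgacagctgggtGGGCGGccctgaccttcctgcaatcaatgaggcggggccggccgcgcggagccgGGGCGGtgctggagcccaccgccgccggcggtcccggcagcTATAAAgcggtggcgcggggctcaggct
Adcyap1r1: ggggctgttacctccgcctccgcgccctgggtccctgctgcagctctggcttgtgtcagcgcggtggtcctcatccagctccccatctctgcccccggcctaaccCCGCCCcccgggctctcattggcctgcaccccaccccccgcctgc

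In the whole window, Sct held 2 GC boxes (at -123 to -118 and -69 to -64, counted from the start site), a TATA box at -28 to -23 and 4 E-boxes (CANNTG). Adcyap1r1 held 1 GC box at -45 to -40, no TATA box and no E-box. Of the 32851 promoter windows in the reference, 35.7% hold a GC box, 13.6% a TATA box and 72.3% an E-box, so none of these motifs is rare. Neither window holds the letters TGACG, the core of the cAMP response element that CREB binds, which 20.8% of all windows hold.

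The 2 peptide genes that were nearly silent in these cells do carry that core within a longer part of the element, and they are shown for this contrast. Neither holds the full element. Of the nearly silent receptor genes, Vipr1 holds the core alone, at -13 to -9, and Vipr2 does not hold it. In capitals is TGACGTC, the cAMP response element without its last base, which 3.21% of windows hold on either strand. It contains the core TGACG and is itself contained in the full element TGACGTCA, held by 1.79% of windows.
Vip, chr10:5639128-5639156, plus strand: gatcactactgTGACGTCtttcggggagc
Adcyap1, chr17:93198915-93198943, plus strand: gactaggatgcTGACGTCttttactgata
TGACGTC lies at -79 to -73 in Vip and at -91 to -85 from the first start site of Adcyap1. Both RefSeq start sites of Adcyap1 lie before the gene's start in the deposited table. A motif found this way is a run of letters and not a measured binding site.

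All values below are FPKM, fragments scaled by gene length and by library depth. Levels of different genes compare only roughly, because the gene length used can differ from the length of a transcript. For Sct it was 645 bases, against 506 bases in an annotated transcript. Recovered reads per library, the whole read numbers that FPKM and gene length imply, ran from 13541198 to 15122063. Of the 12749 genes that averaged 1 FPKM or more, limma called 556 higher and 615 lower with si-circRtn4, at a Benjamini-Hochberg adjusted p under 0.05. Rescaling each library to the same FPKM sum (TPM) turned this split into 972 higher and 393 lower. Rtn4 itself was at 60.99, 66.8 and 69.82 FPKM with si-NC and at 50.08, 56.74 and 62.72 FPKM with si-circRtn4 (log2 difference -0.22, standard error 0.10, adjusted p = 0.216). A gene-level value does not separate linear from circular RNA, so the depletion of circRtn4 cannot be read from it. The paper measured the knockdown in N2a cells by qRT-PCR, called it efficient, and reported no significant change of linear Rtn4 mRNA. Of 14 neuroblastoma and sympathetic neuron markers, 13 reached a mean of 1 FPKM, and none of the markers of glia, fibroblasts, macrophages and blood, epithelium or enteroendocrine cells did. The summed level of the neuroblastoma markers ran from 2560 to 2814 FPKM with si-NC and from 1124 to 1607 FPKM with si-circRtn4, and its part in the results below was not tested. In bulk RNA, fewer cells that express a gene and less of its RNA per cell cannot be told apart.

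Among the receptors, Adcyap1r1 was the most abundant in control cells. Adcyap1r1 (ENSMUSG00000029778, chromosome 6, 55451978 to 55501451, plus strand) had 40.15, 39.9 and 38.24 FPKM after si-NC, against 10.19, 9.938 and 11.7 FPKM after si-circRtn4. Every si-circRtn4 library lay below every si-NC library, and the 3 libraries of each group lay close together. The mean level was 39.4 ± 1.04 FPKM in controls against 10.6 ± 0.954 FPKM after knockdown (SD, n = 3 each), that is 26.9% of the control level. On the log2(FPKM + 1) scale the difference was -1.80 (standard error 0.08). Between 957 and 4000 reads per library lie behind these values.

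The secretin receptor gave another picture. Sctr (ENSMUSG00000026387, chromosome 1, 120006894 to 120063536, plus strand) was at 21.96, 14.93 and 28.84 FPKM with si-NC and at 17.12, 17.82 and 39.55 FPKM with si-circRtn4. The groups overlapped, and replicate 3 was the highest library in both. The means of 21.9 ± 6.96 and 24.8 ± 12.8 FPKM (SD, n = 3 each) differed by less than the spread between libraries. The log2 difference of 0.11 (standard error 0.34) became -0.13 when si-NC replicate 2 was left out, and -0.26 when si-circRtn4 replicate 3 was, so no direction can be given for Sctr. Between 433 and 1157 reads lie behind each value, and the 95% Poisson intervals of the 3 si-NC libraries (20.33 to 23.7, 13.55 to 16.4 and 26.89 to 30.89 FPKM) do not touch each other.

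The 2 VPAC receptors were at the limit of detection. Vipr2 (ENSMUSG00000011171, chromosome 12, 116077726 to 116146261, plus strand) had 6, 2 and 1 reads with si-NC and 2, 1 and 7 reads with si-circRtn4, that is 9 and 10 reads in all. Vipr1 (ENSMUSG00000032528, chromosome 9, 121642716 to 121672954, plus strand) had 2 reads in si-NC replicate 2 and 0 in the other 5 libraries. A count of 0 allows up to 3 reads, or 0.0332 to 0.037 FPKM for Vipr1, so a difference between the groups was not detectable at this depth for either gene.

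Of the peptides, secretin was the only one of the 3 with a clear transcript level. Sct (ENSMUSG00000038580, chromosome 7, 141278330 to 141279133, minus strand) was at 27.22, 20.64 and 19.72 FPKM with si-NC and at 5.776, 3.586 and 4.692 FPKM with si-circRtn4. The groups did not overlap, and the highest si-circRtn4 library was well under the lowest si-NC library. The means were 22.5 ± 4.09 and 4.69 ± 1.095 FPKM (SD, n = 3 each), leaving 20.8% of the control level, a log2 difference of -2.05 (standard error 0.17). The length used for Sct is short, at 645 bases, so few reads carry it: 265, 192 and 178 with si-NC and 53, 36 and 44 with si-circRtn4. The lowest library, si-circRtn4 replicate 2, had a 95% Poisson interval of 2.51 to 4.96 FPKM, and the lowest si-NC library one of 16.93 to 22.84 FPKM. These intervals cover counting error only.

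The PACAP and VIP transcripts were all but missing. Adcyap1 (ENSMUSG00000024256, chromosome 17, 93199422 to 93205485, plus strand) was listed at 0 in all 6 libraries, which allows up to 3 reads per library, or 0.0923 to 0.103 FPKM. Vip (ENSMUSG00000019772, chromosome 10, 5639218 to 5647617, plus strand) had 1, 0 and 1 reads with si-NC and 2, 2 and 0 reads with si-circRtn4. The cells thus held transcripts of the PAC1 receptor with no PACAP or VIP reads above the floor, and transcripts of both secretin and its receptor.

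**Figure D1:**
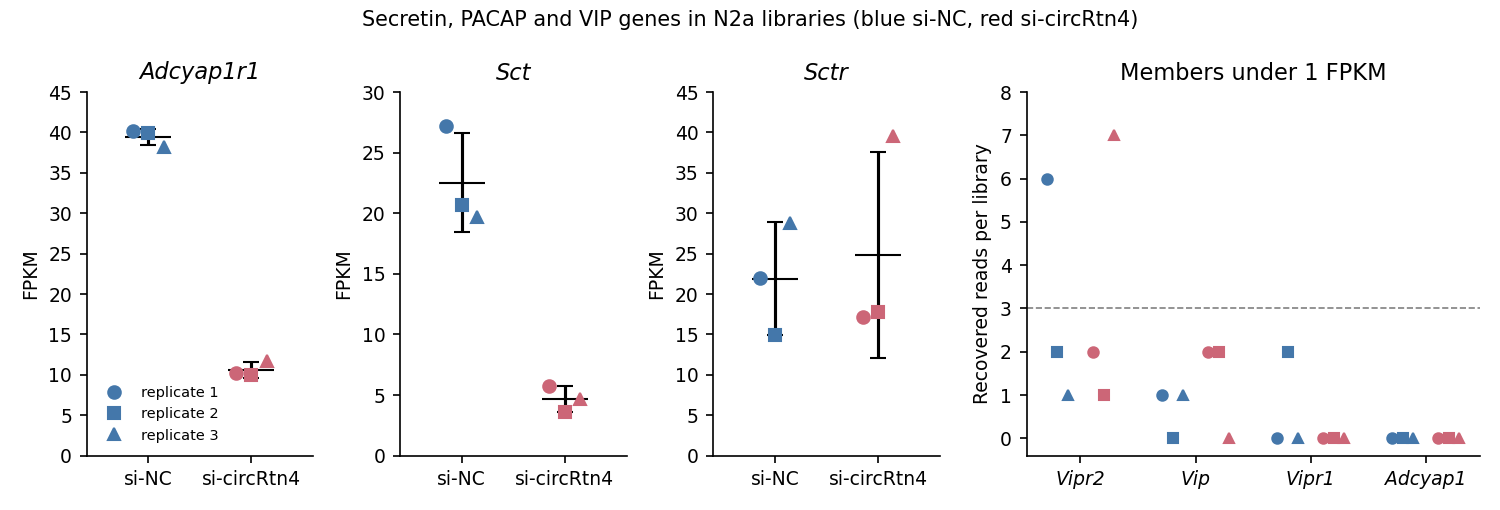
Levels of the 7 genes by library, in FPKM for Adcyap1r1, Sct and Sctr (points: libraries, marker shape: replicate number, bars: mean and SD, n = 3) and in recovered reads for the 4 genes under 1 FPKM, with a dashed line at the floor of 3 reads. Adcyap1r1 and Sct were below the si-NC range in all 3 si-circRtn4 libraries, Sctr overlapped, and the 4 others reached at most 7 reads.

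Of the 7 members, 6 were above 0 in at least 1 library, 3 reached the mean of 1 FPKM needed for the fit, and 4 did not. Sct and Adcyap1r1, 2 of the 3, lay below si-NC in every si-circRtn4 library, as did 15.5% of all genes tested. Because this contrast chose the members, nothing is read from that count. Ordered by log2 difference from the lowest, Sct was at position 3 and Adcyap1r1 at position 6 of 12749 genes, and Sctr at position 8929. The differences of Sct ran from -2.26 to -1.91 and those of Adcyap1r1 from -1.89 to -1.76 over the other settings and over leaving out each library.

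The order of the members was not the same in both groups. In each si-NC library Adcyap1r1 was the highest, and Sct and Sctr did not keep one order, with Sct above Sctr in replicates 1 and 2 and below it in replicate 3. In each si-circRtn4 library Sctr was highest, then Adcyap1r1, then Sct. The ratio of Sctr to Adcyap1r1 was 0.547, 0.374 and 0.754 in the si-NC libraries and 1.68, 1.79 and 3.38 in the si-circRtn4 libraries, so the secretin receptor was the scarcer of the pair in all control libraries and the more abundant in all knockdown libraries.

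Secretin transcripts relative to their receptor were lower with si-circRtn4. No direction could be given for Sctr, so its ratios to Sct and Adcyap1r1 restate the lower levels of those genes. The members were chosen with those levels known, so nothing further is read from the order or the ratios. The ratio of Sct to Sctr was 1.24, 1.38 and 0.684 with si-NC and 0.337, 0.201 and 0.119 with si-circRtn4. The ratio of Sct to Adcyap1r1, the pair that was lower together, was 0.678, 0.517 and 0.516 against 0.567, 0.361 and 0.401. These ranges overlapped, and within each of the 3 pairs of the same replicate number the ratio was lower with si-circRtn4. Within libraries of the same replicate number, Sct stood at 0.212, 0.174 and 0.238 of its control, Adcyap1r1 at 0.254, 0.249 and 0.306, and Sctr at 0.779, 1.19 and 1.37.

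**Figure D2:**
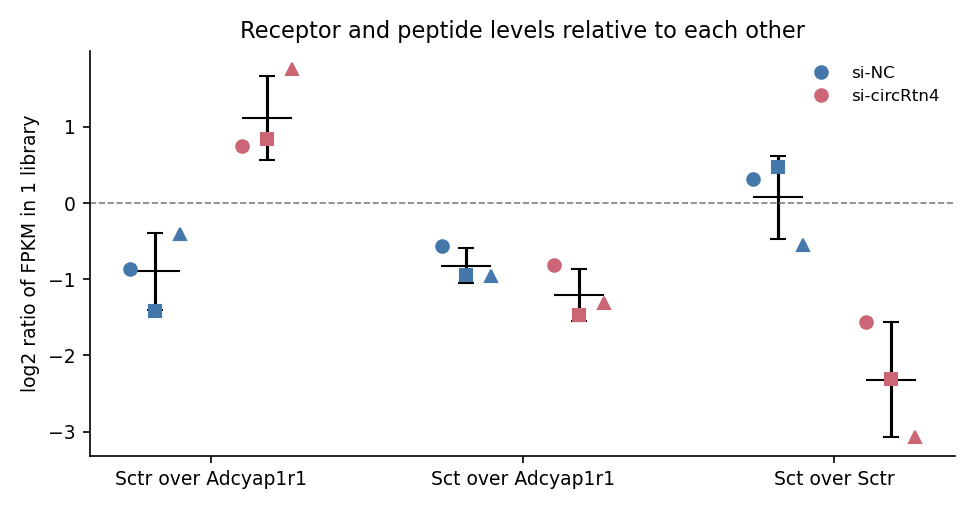
Ratios between the 3 measured members within each library, on a log2 axis where 0 means equal FPKM (points: libraries, marker shape: replicate number, bars: mean and SD, n = 3). Sctr over Adcyap1r1 was below 0 in all 3 si-NC libraries and above 0 in all 3 si-circRtn4 libraries, and Sct over Adcyap1r1 overlapped between the groups.

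Set beside the rest of their receptor class, Adcyap1r1 and Sctr were the most abundant of the listed class B1 receptors in control cells. Of 14 other class B1 receptor and accessory genes, 2 were at 0 in every library and 5 reached the mean of 1 FPKM, namely Crhr1, Gipr, Glp1r, Pth1r and the accessory gene Ramp2. Crhr1, the receptor of corticotropin-releasing hormone, was at 5.14 ± 1.29 and 6.12 ± 0.884 FPKM (SD, n = 3 each, adjusted p = 0.419). Gipr, the receptor of the incretin GIP, was at 5.08 ± 0.641 and 3.72 ± 0.0898 FPKM (SD, n = 3 each), with a log2 difference of -0.36 and an adjusted p of 0.062. None of the 5 was called, where 4.82% of all genes fell and 4.36% rose. With so few tested, a count of 0 is near that share, and nothing is read from it. The median log2 difference was 0.23, with 2 at an unadjusted p under 0.05 and 0 called by limma-voom on the recovered reads. With replicate numbers as a block, which called 9.75% of all genes lower and 9.29% higher, Gipr (adjusted p = 0.044) and Ramp2 (log2 difference 0.37, adjusted p = 0.0471) passed.

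Among 15 other class B1 peptides, 7 were at 0 in every library and only Adm2 and Adm could be tested. Adm, which encodes the vasodilator adrenomedullin, was at 2.414, 2.999 and 2.295 FPKM with si-NC and at 0.5644, 0.9524 and 0.6798 FPKM with si-circRtn4. The groups did not overlap, and Adm fell by 1.04 on the log2 scale (standard error 0.14, adjusted p = 0.00727). Its mean with si-circRtn4 was 0.732 FPKM, so it reached the mean of 1 FPKM needed for the fit only through si-NC. Adm2, the related intermedin, was near the level that Sct had in control cells, at 22.9 ± 2.89 FPKM with si-NC and 25.2 ± 4.07 FPKM with si-circRtn4 (SD, n = 3 each, adjusted p = 0.622). Of 39 other neuropeptide precursors, 14 were at 0 in every library, 7 were tested and none was called, where 4.82% of all genes fell and 4.36% rose. A count of 0 among so few is near that share, and nothing is read from it. There were 3 at an unadjusted p under 0.05 and 0 called by limma-voom. The most abundant of them, the CART peptide gene Cartpt, was at 9.50 ± 1.05 and 7.37 ± 1.11 FPKM (SD, n = 3 each, adjusted p = 0.132), and Pomc at 2.96 ± 0.290 and 3.58 ± 0.360 FPKM (SD, n = 3 each, adjusted p = 0.253). With the replicate block, Cartpt (adjusted p = 0.0433) and the neuropeptide FF gene Npff (log2 difference -0.71, adjusted p = 0.0425) passed, and without si-circRtn4 replicate 2 the count of 0 became 1. Npff, at 0.886 FPKM with si-circRtn4, reached the mean needed for the fit only through si-NC.

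**Figure D3:**
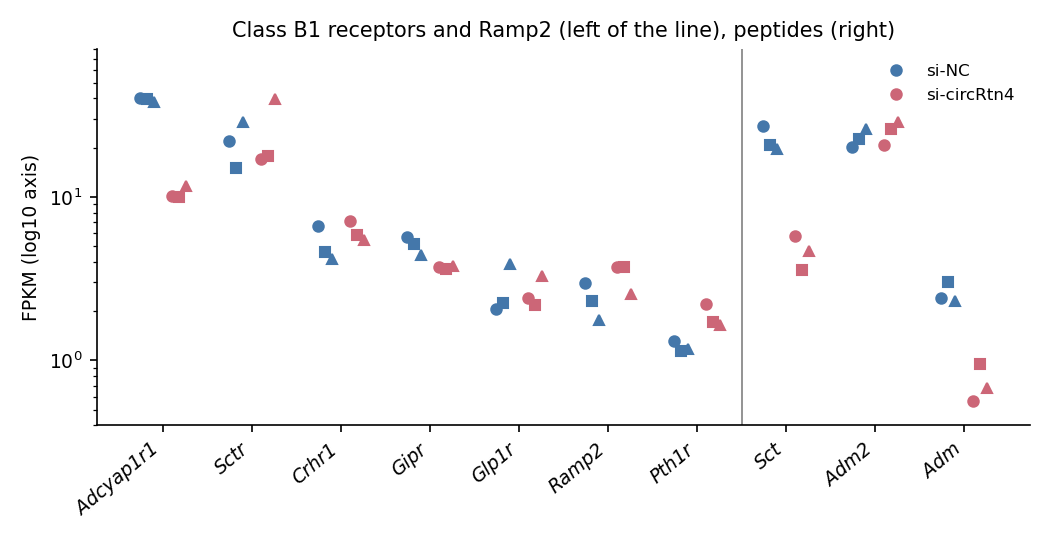
FPKM of the class B1 receptor and accessory genes (left of the line) and peptide genes (right) that averaged 1 FPKM or more, on a log10 axis (points: libraries, marker shape: replicate number). In the si-NC libraries Adcyap1r1 and Sctr lie above the other receptors, and Sct and Adm2 lie at similar levels, whereas in the si-circRtn4 libraries Sct lies below Adm2.

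The machinery between receptor and nucleus was described with 37 genes, of which 27 were tested. This Gs and cAMP list also holds receptor kinases, arrestins and the other G protein genes Gnaq and Gna11. Its 2 called genes were a receptor kinase and an arrestin. Against 4.82% of all genes called lower and 4.36% called higher, 2 of the 27 fell and 0 rose, and the median log2 difference was -0.07 against 0.00 over all genes. Grk5, a kinase that phosphorylates activated G protein-coupled receptors, was at 14.95, 12.25 and 13.64 FPKM with si-NC and at 7.129, 5.603 and 5.868 FPKM with si-circRtn4. The groups did not overlap, and Grk5 fell by 1.02 on the log2 scale (standard error 0.11, adjusted p = 0.00301). Arrb1, an arrestin that binds phosphorylated receptors, fell from 10.96 ± 0.648 to 8.25 ± 0.396 FPKM (SD, n = 3 each, log2 difference -0.37, adjusted p = 0.0262).

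The Arrb1 call was lost without any 1 library other than si-circRtn4 replicate 3 (adjusted p 0.059 to 0.0853), and also with TPM (0.0641). The abundant protein kinase A genes did not pass, with Prkar1a, a regulatory subunit, at 165 ± 17.5 and 194 ± 24.03 FPKM (SD, n = 3 each, adjusted p = 0.273) and Prkaca, a catalytic subunit, at 71.3 ± 3.72 and 60.0 ± 1.15 FPKM (SD, n = 3 each, adjusted p = 0.0735). With the replicate block 6 genes of this list passed, among them Prkar1a higher (adjusted p = 0.0429) and Prkaca lower (adjusted p = 0.0336).

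Genes known to respond to cAMP and CREB went in both directions. Of 21 listed, 15 were tested, 4 fell and 1 rose, where 4.82% of all genes fell and 4.36% rose, and the median log2 difference was -0.05 against 0.00 over all genes. Chga, which encodes the granule protein chromogranin A, was at 279.1, 246.7 and 238 FPKM with si-NC and at 78.66, 86.37 and 90.62 FPKM with si-circRtn4, with no overlap (log2 difference -1.57, standard error 0.09, adjusted p = 0.000641). Th, the rate-limiting enzyme of catecholamine synthesis, fell from 2.54 ± 0.370 to 0.712 ± 0.131 FPKM (SD, n = 3 each, log2 difference -1.05, adjusted p = 0.00553). The nuclear receptor gene Nr4a3 fell from 2.48 ± 0.332 to 0.868 ± 0.168 FPKM (SD, n = 3 each, log2 difference -0.90, adjusted p = 0.0099). Both Th and Nr4a3 were under 1 FPKM with si-circRtn4, so they reached the mean needed for the fit only through si-NC.

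Chga and Th are also on the neuroblastoma marker list, so the 2 lists are not separate evidence. Nr4a2 was lower (log2 difference -0.75, adjusted p = 0.0481), but its call was lost without any 1 of the 6 libraries (adjusted p 0.0504 to 0.13), with a pseudocount of 0.1 (0.0512) and with TPM (0.0606). Sik1, an inhibitor of CREB coactivators that CREB itself induces, was the 1 gene that rose, from 7.53 ± 0.481 to 9.95 ± 0.371 FPKM (SD, n = 3 each, log2 difference 0.36, adjusted p = 0.0284), and was named after its values were seen. Its call was lost without any 1 library other than si-NC replicate 1 (adjusted p 0.0651 to 0.109). The 2 most abundant of the rest did not pass: Vgf, a secreted neuroendocrine protein, was at 186 ± 17.3 and 206 ± 30.1 FPKM (SD, n = 3 each, adjusted p = 0.524), and Scg2, secretogranin II, at 83.1 ± 17.8 and 58.8 ± 17.5 FPKM (SD, n = 3 each, adjusted p = 0.219, and 0.012 with the replicate block).

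Peptide precursors such as prosecretin are cut and amidated before release, and several genes of that maturation were lower. Of 14 genes, 10 were tested, 4 fell and 1 rose, where 4.82% of all genes fell and 4.36% rose, and the median log2 difference was -0.26 against 0.00 over all genes. Scg5, the chaperone 7B2 of the convertase PC2, fell from 102 ± 6.81 to 65.1 ± 4.84 FPKM (SD, n = 3 each, log2 difference -0.64, adjusted p = 0.00665), and Pcsk2, which encodes PC2, from 1.602 ± 0.167 to 0.785 ± 0.0712 FPKM (log2 difference -0.54, adjusted p = 0.0415). Being under 1 FPKM with si-circRtn4, Pcsk2 reached the mean needed for the fit only through si-NC. Pcsk1n, an inhibitor of the convertase PC1, fell by 0.51 on the log2 scale (adjusted p = 0.0213) and the amidating enzyme Pam by 0.48 (adjusted p = 0.0236). An inhibitor is thus counted among the 4 that fell. The gene of PC1 itself, Pcsk1, was near 0, at 0.00425 FPKM with si-NC and 0 with si-circRtn4.

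Of the 4 genes that fell, only Scg5 kept its call without each library in turn. The Pcsk2 call was lost without any 1 of the 6 libraries (adjusted p 0.0695 to 0.131), with a pseudocount of 0.1 (0.0515) and with TPM (0.0601), that of Pcsk1n without si-NC replicate 2 or any si-circRtn4 replicate (0.0588 to 0.0641) and that of Pam without si-NC replicates 2 or 3 or si-circRtn4 replicates 1 or 2 (0.0731 to 0.0811). The protease gene Ctsl rose from 7.24 ± 0.653 to 10.4 ± 0.595 FPKM (SD, n = 3 each, log2 difference 0.47, adjusted p = 0.019) and was named after its values were seen. Its call was lost without si-NC replicate 2 or si-circRtn4 replicates 1 or 2 (0.0642 to 0.0709). The carboxypeptidases Cpe (log2 difference -0.29, adjusted p = 0.0748, and 0.0492 with the replicate block) and Cpd (-0.07, adjusted p = 0.578) did not pass.

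**Figure D4:**
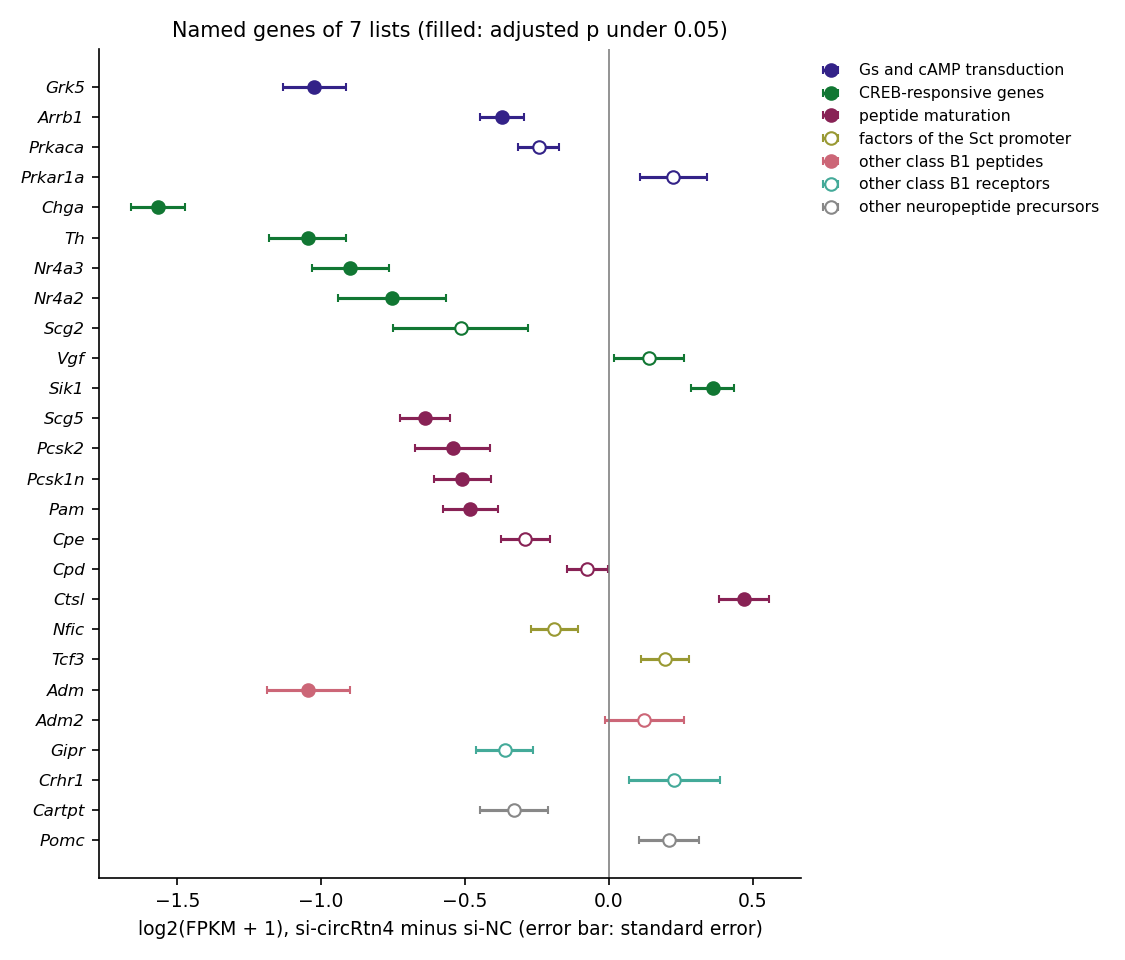
Differences in log2(FPKM + 1), si-circRtn4 minus si-NC, for the named genes of the 7 lists (points: estimate, bars: standard error from limma, filled points: adjusted p under 0.05 over all genes tested). Chga, Th, Adm and Grk5 lie farthest to the left, and Sik1 and Ctsl are the filled points to the right of 0.

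The transcription factors known to act on the secretin promoter were present in both groups, apart from Neurod1. Of 6 listed, 5 were tested and none was called, where 4.82% of all genes fell and 4.36% rose, so nothing is read from that count. There was 1 at an unadjusted p under 0.05 and 0 called by limma-voom. Nfic was at 36.7 ± 2.40 and 32.0 ± 2.13 FPKM (SD, n = 3 each, adjusted p = 0.199), and the E-box factor gene Tcf3 at 27.8 ± 1.17 and 32.0 ± 2.62 FPKM (SD, n = 3 each, adjusted p = 0.186). Sp1 was at 23.8 ± 0.231 and 21.4 ± 1.30 FPKM (SD, n = 3 each, adjusted p = 0.247), and Sp3 at 17.2 ± 0.649 and 19.3 ± 1.39 FPKM (SD, n = 3 each, adjusted p = 0.257). Neurod1, which drives secretin in the gut, was near 0, at 0.0169 FPKM with si-NC and 0.042 FPKM with si-circRtn4.

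None of the tested genes beside Sct was called. Within 100 kb of Sct lie 15 genes, of which 6 were tested. Over all genes 4.82% fell and 4.36% rose, so a count of 0 among 6 is near that share, and nothing is read from it. The count of 0 held for limma, limma-voom and every other setting tried, with 1 gene at an unadjusted p under 0.05. The nearest tested, Phrf1 at 15.6 kb and Deaf1 at 18 kb, were at 90.2% and 79.95% of si-NC, both without overlap of the groups (log2 differences -0.14 and -0.29, adjusted p = 0.257 and 0.181). Hras, Rassf7, Tmem80 and the predicted gene Gm5905 had log2 differences of 0.16, 0.10, 0.00 and 0.26 (adjusted p of 0.342, 0.619, 0.995 and 0.456). Beside Sctr, Tmem37 at 3.84 kb rose from 5.10 ± 0.569 to 7.62 ± 0.245 FPKM (SD, n = 3 each, log2 difference 0.50, adjusted p = 0.0174), a call lost without si-NC replicate 2 or si-circRtn4 replicates 2 or 3 (0.0544 to 0.0644). It was the 1 called gene of 4 tested there, where 4.36% of all genes were called higher. Among the 4, 2 were called by limma-voom and 3 were at an unadjusted p under 0.05. With so few genes nothing is read from these counts. The 3 neighbours of Adcyap1r1 were too low to test.

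The small RNAs of the study are shown with the sites they have in the members, because Adcyap1r1 alone among the 7 has any in its 3′ UTR. CircRtn4 was studied as a sponge of miR-24-3p, whose mature sequence is given from RefSeq. For si-circRtn4, the 19 bases listed in the study were reverse complemented to give the guide strand, and the antisense probe against circRtn4 contains that strand. Which strand was active was not measured. Capitals mark the seed, bases 2 to 8.
miR-24-3p: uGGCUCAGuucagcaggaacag
si-circRtn4 guide: aAAAGGGTctcatctgaag

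The longest annotated 3′ UTR of Adcyap1r1 has 4280 bases and holds 1 site of 7 bases for the guide seed (capitals, at base 3232 of the UTR) and 2 for the seed of miR-24-3p (capitals, at bases 187 and 2329).
Guide site, chr6:55500403-55500409: attccttgagtACCCTTTgccccacttcc
First miR-24-3p site, chr6:55497358-55497364: actgtggtccaCTGAGCCcaatttgatat
Second miR-24-3p site, chr6:55499500-55499506: cctgctgctttCTGAGCCctgggcctgtg
None of the 3 sites is followed by A. The 3′ UTR of Sct, with 239 bases, holds none of these sites, nor does that of Sctr, with 254 bases. Outside the 3′ UTR, the transcripts of Adcyap1r1 and of Vipr2 hold 1 further miR-24-3p site each.

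Sites of this kind are common. Among 10688 tested genes with a 3′ UTR, 13.1% hold a guide seed site and 21.6% a miR-24-3p site. The guide site was held by 131 of the 568 genes called lower (23.1%) and by 49 of the 505 called higher (9.7%), whereas the miR-24-3p site was held by 21.8% and 22.4% of them. The median UTR length was 1350 bases for the genes called lower, 1258 bases for those called higher and 1348 bases for all. That of Adcyap1r1, at 4280 bases, is the longest of the 7 members and well above these medians, so the shares are not matched to its length. The part of these sites in the level of Adcyap1r1 was not tested.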

How the data were processed

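RNA-seq of 6 N2a libraries was analysed, 3 si-NC and 3 si-circRtn4, grouped by the sample labels. Nothing says that they came from separate cultures, so p-values measure the spread between these libraries, which may be technical. The authors deposited 1 FPKM value per gene and library. The submitters' processing notes name Bowtie 0.12.2 and the builds mm8 and mm9, but 98.3% of the genes have the coordinates of GENCODE M21, that is GRCm38, which was used here. The counting tool is not given in the sources used here, nor whether it used strand. FPKM multiplied by gene length gave whole reads for 100% of values (tolerance 0.1), and the recovered reads numbered 14100818 to 14748929 (si-NC) and 13541198 to 15122063 (si-circRtn4). Another 6 columns of other samples were not used.

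Differences in log2(FPKM + 1) were estimated by limma 3.58.1 (R 4.3.3, eBayes with trend, two-sided). Only the 12749 genes that averaged 1 FPKM or more entered, and p-values were adjusted by Benjamini-Hochberg over all of them. This scale understates the change of low genes. Replicate numbers are shared between groups. Libraries of the same number deviated together from their groups (r of 0.331, 0.19 and 0.226), so the numbers were treated as pairs in an added fit with a replicate block. The alternatives were a pseudocount of 0.1, all detected genes, TPM with and without the most abundant gene, limma-voom on the recovered reads, the block, and leaving out each library.

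The members and gene lists were chosen with earlier results of these data known. Named are every member, per list up to 4 called genes with the largest difference and no overlap and the 2 most abundant others, every tested gene within 100 kb of Sct and the called ones near other members, and the 3 protein-coding genes with the pattern nearest to each measured member. Sik1, Ctsl, Ramp2, Npff, Neurod1, Pcsk1, Sp1, Sp3 and the other class B1 receptor genes above 1 FPKM were named after their values were seen. Some genes that these rules name are not reported here. Per gene, the longest GENCODE M21 3′ UTR of 20 bases or more was searched for seed sites. Figures were drawn with matplotlib 3.10.9 in Python 3.11.15.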

Additional observations from a re-analysis of the deposited data

How the results depend on the processing

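The differences of Sct and Adcyap1r1 kept their direction and stayed within 1 SD between replicates under every alternative, and that of Sctr changed sign without si-NC replicate 2 or si-circRtn4 replicate 3. A tally over the settings covered 33 named genes outside the members. Among those it left out were Ramp2 and Npff, which also passed with the block, and the genes of the nearest patterns. Of the 33, 17 kept their direction and their side of the threshold throughout, and 6 gained a call with the replicate block. Another 8 lost theirs in at least 1 alternative, among them testing all detected genes for each (Nr4a2, Sik1, Arrb1, Pcsk2, Pcsk1n, Pam, Ctsl and Tmem37, adjusted p 0.059 to 0.161). The other 2, neither called, changed sign: Cpd to 0.013 with TPM, and Tmem80, at -0.053 to 0.099 without each library. Counts of called genes moved more. With all detected genes tested, 210 genes were higher and 261 lower. The paired fit with a replicate block gave 1185 and 1243, TPM 972 and 393, and limma-voom 902 and 725. Without each library in turn 163 to 407 were higher and 217 to 419 lower, lowest without si-NC replicate 2. By list, testing all detected genes left 3 called CREB-responsive genes, 1 in the Gs and cAMP list and 1 in peptide maturation, and added 1 class B1 receptor gene, Calcrl, at 0.0939 FPKM with si-NC and 0.481 FPKM with si-circRtn4, which is under the mean of 1 FPKM and was named after its values were seen. The replicate block called 6 Gs and cAMP genes, 2 class B1 receptor genes and 2 neuropeptide precursors, and changed no other call of a named gene than those given beside the results. Without each library, 3 to 4 CREB-responsive, 1 to 3 Gs and cAMP, 1 to 4 maturation and 0 to 1 neuropeptide genes were called. The causes were not tested, apart from the fewer samples or the more genes tested that some of these settings contain. Depth limits Vip, Vipr1, Vipr2 and Adcyap1, which no setting can compare, and leaves 36 to 53 reads of Sct per si-circRtn4 library.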

Other observations

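The protein-coding genes with the pattern nearest to each measured member, by Euclidean distance over the 6 libraries of log2(FPKM + 1) centred on each gene's own mean, were looked up among 10783 genes. Nearest to Sct were Pdzk1ip1 (distance 0.496), Ace (0.512) and Mylip (0.518). Pdzk1ip1 was at 13.68, 9.713 and 10.41 FPKM with si-NC and at 3.242, 2.457 and 2.553 FPKM with si-circRtn4, and like Sct it was highest in si-NC replicate 1. Ace, the angiotensin-converting enzyme, was at 11.14, 8.986 and 8.623 FPKM against 2.42, 2.078 and 2.069 FPKM. Nearest to Adcyap1r1 were Mylip (0.202), Ptprr (0.211) and Neurl3 (0.321). Mylip, a ubiquitin ligase gene that is near both members, was at 31.95, 27.18 and 27.45 FPKM with si-NC and at 8.001, 6.936 and 8.829 FPKM with si-circRtn4.

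Near to Sctr were Mvd (0.397) and Gm8186 (0.581). Mvd was at 27.51, 22.01 and 35.29 FPKM with si-NC and at 26.35, 23.26 and 42.59 FPKM with si-circRtn4, and Gm8186 at 39.99, 34.68 and 42.39 against 28.59, 35.95 and 55.77 FPKM. As with Sctr, replicate 3 was the highest library of both groups for these genes. These distances are a description over 6 libraries of 1 experiment, with no test.

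Tph1, the tryptophan hydroxylase of serotonin-producing gut endocrine cells and 1 of 5 enteroendocrine markers looked at beside secretin, was under the mean of 1 FPKM and not tested. It was at 1.481, 1.764 and 1.69 FPKM with si-NC and at 0.1367, 0.1561 and 0.3901 FPKM with si-circRtn4, without overlap. Neurog3, Cck and Sst were at 0 in every library.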
